A study of Homo sapiens with 6 samples.

Results

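ENSG00000303816 and ENSG00000300428 are 2 unnamed non-coding genes on the plus strand of chromosome 9, chosen by their counts, higher in SFPQ-depleted cells, and by their closeness on the chromosome from a table of 35036 genes. Cells were U-2OS, a human osteosarcoma line, and each library was made from poly(A)-selected RNA of cells that had received actinomycin D, which blocks transcription. The SiSFPQ group (3 libraries) was depleted of SFPQ and the SiCtrl group (3 libraries) was its control, as the labels name them. For actinomycin D no dose or duration is stated in the labels, which also do not say whether the libraries came from separate cultures. No library was without it, so differences in RNA made before the block and in RNA lost after it cannot be told apart. Below, rose and fell mean higher and lower in SiSFPQ than in SiCtrl. The table held 1298658 to 1599566 counts per SiSFPQ library and 1385532 to 1533974 per SiCtrl library, over non-coding genes alone. The level of SFPQ and markers of the cell line, as coding genes, were not analysed here, and the groups rest on the labels.

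SFPQ is a nuclear RNA-binding protein of the family that also holds NONO and PSPC1, and it takes part in transcription, splicing and the assembly of paraspeckles. The region holds several coding genes. IPPK makes inositol hexakisphosphate, a phosphorylated inositol that acts as a cofactor of proteins. BICD2 is an adaptor that ties the motor dynein and its partner dynactin to cargo such as RAB6 vesicles and, before mitosis, to the nuclear pore. Long non-coding genes often start beside the promoter of a coding gene and run away from it, or lie on the strand opposite a coding gene.

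The members have these 2 positions. ENSG00000300428 (chromosome 9, 92670317 to 92674543, read as GRCh38) lies head to head with IPPK, which is on the minus strand. Its 5′ end is 52 bases from that of IPPK in GENCODE 29 and 186 bases from the IPPK start in RefSeq. It has 2035 exonic bases in a span of 4227, and no exon of a coding gene lies in that span. ENSG00000303816 (chromosome 9, 92722219 to 92723102) starts 47675 bases beyond its end, inside BICD2 and on the opposite strand. It has 421 exonic bases in a span of 884. That span holds the whole of BICD2 exon 3 (92722656 to 92722808, coding sequence, in 2 transcripts) and no other BICD2 exon, the nearest ones being 1464 and 5922 bases away. BICD2 itself starts 41710 bases from the 3′ end of ENSG00000303816, so a start shared with BICD2 is not part of its listed position.

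The sequences come from the places where each member adjoins or overlaps its coding neighbour. The first is the stretch between the 5′ ends of IPPK and ENSG00000300428 (chr9:92670266-92670316, minus strand, RefSeq, GRCh38.p14), with the ETS core CCGGAA of either strand in capitals. The second is the start of ENSG00000300428 as far as the RefSeq promoter entry of IPPK reaches (chr9:92670317-92670381, plus strand). The last is BICD2 exon 3 as it is in the messenger RNA (chr9:92722656-92722808, minus strand, GENCODE 29). This coding sequence lies within the span of ENSG00000303816. No capitals are used in these last 2.
Between IPPK and ENSG00000300428: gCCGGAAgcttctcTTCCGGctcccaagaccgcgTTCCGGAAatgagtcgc
Start of ENSG00000300428: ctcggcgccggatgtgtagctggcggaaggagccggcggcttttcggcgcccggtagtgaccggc
BICD2 exon 3: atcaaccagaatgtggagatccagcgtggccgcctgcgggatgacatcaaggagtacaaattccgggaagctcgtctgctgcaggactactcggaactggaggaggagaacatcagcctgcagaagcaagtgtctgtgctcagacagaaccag

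The 300-base promoter entry of IPPK, which contains the first 65 bases of ENSG00000300428, had 69.0% G and C, against a median of 58.7% over all 35116 promoter entries. Counted on both strands, CCGGAA occurred 6 times in it, and 4 of these matches lay in the 51 bases between the 5′ ends, with TTCCGGAA read as a match on each strand. At least 1 match was present in 17.2% of promoter entries, and 6 or more in 11 of 35116 (0.0313%). The YY1 core AAGATGG occurred once, as in 5.84% of entries, and the GC box GGGCGG once, as in 45.0%. Neither CCAAT, present in 34.6%, nor TATAAA, present in 11.5%, was in this window. These motifs were chosen after the sequence had been seen, and a match is a description of letters and not of binding. Neither member has a promoter entry of its own in the table used.

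ENSG00000303816 had 41, 40 and 41 counts in the SiSFPQ libraries, against 3, 4 and 10 in the SiCtrl libraries. As CPM, which are counts scaled to library size with TMM factors, these were 31.3, 24.9 and 26.5 in SiSFPQ, against 2.14, 2.72 and 7.48 in SiCtrl. The groups did not overlap, and SiCtrl replicate 3 stood above the other SiCtrl libraries. In such bulk RNA, fewer cells with a transcript and less of it per cell cannot be told apart. The mean was 27.6 ± 3.33 CPM in SiSFPQ and 4.11 ± 2.93 CPM in SiCtrl (SD, n = 3 each).

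ENSG00000300428 had 23, 25 and 24 counts in SiSFPQ, against 4, 4 and 2 in SiCtrl. These were 17.6, 15.6 and 15.5 CPM in SiSFPQ, against 2.85, 2.72 and 1.5 CPM in SiCtrl. The groups again did not overlap, but here SiCtrl replicate 3 was the lowest library and not the highest. The mean was 16.2 ± 1.17 CPM in SiSFPQ and 2.36 ± 0.748 CPM in SiCtrl (SD, n = 3 each). The variance over mean of the SiSFPQ counts was 0.042 for this gene and 0.0082 for ENSG00000303816. Counting error alone is expected to give more, so the SiSFPQ SDs understate how uncertain these levels are.

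**Figure D1:**
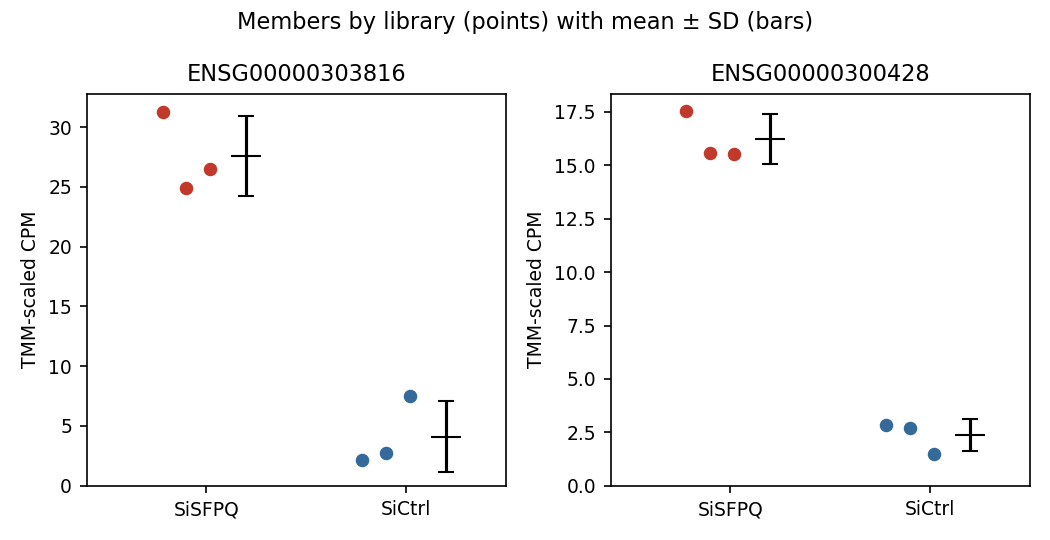
TMM-scaled CPM (linear axes from 0) of the 2 genes in each library, SiSFPQ left and SiCtrl right; points are libraries and bars the mean ± SD of 3. The SiSFPQ libraries sit at 24.9 to 31.3 CPM for ENSG00000303816 and 15.5 to 17.6 CPM for ENSG00000300428, above the SiCtrl libraries at 2.14 to 7.48 and 1.5 to 2.85 CPM.

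The fitted differences of the 2 genes were close in size. The fitted log2 fold change of SiSFPQ over SiCtrl was 2.73 ± 0.31 (SE) for ENSG00000303816 and 2.72 ± 0.39 (SE) for ENSG00000300428 (edgeR), given here as a description with no test, because the genes were picked for it. The ratio of pooled counts, scaled by library size, was 6.77 for ENSG00000303816 with a 95% exact counting interval of 4.06 to 12, and 6.79 for ENSG00000300428 with an interval of 3.49 to 14.8. These intervals cover counting error only. Over the 9 pairings of a SiSFPQ with a SiCtrl library, the log2 ratio ran from 1.74 to 3.87 for ENSG00000303816 and from 2.44 to 3.55 for ENSG00000300428. Without SiCtrl replicate 3 the log2 fold change of ENSG00000303816 was 3.43, and that of ENSG00000300428 was 2.49. In the same order they were 2.43 and 2.86 without SiCtrl replicate 1, and 2.49 and 2.82 without SiCtrl replicate 2. The close match of the values thus needed every SiCtrl library.

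The balance between the genes can be read from their counts in the same library. ENSG00000303816 had 1.78, 1.6 and 1.71 reads for each read of ENSG00000300428 in the SiSFPQ libraries, against 0.750, 1.00 and 5.00 in the SiCtrl libraries. Pooled, the ratio was 1.69 (95% exact interval 1.26 to 2.30) in SiSFPQ and 1.70 (0.735 to 4.15) in SiCtrl. The SiCtrl interval is wide because only 27 reads of the pair were counted there. Per kilobase of exonic length the level of ENSG00000303816 was 65.5 ± 7.91 CPM in SiSFPQ and 9.77 ± 6.96 CPM in SiCtrl, and that of ENSG00000300428 was 7.97 ± 0.573 CPM in SiSFPQ and 1.16 ± 0.367 CPM in SiCtrl (SD, n = 3 each). The shorter gene inside BICD2 was thus the denser of the pair in every library.

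Reads of ENSG00000303816 may include reads of BICD2 messenger RNA, because its span contains exon 3 of BICD2. The listed exon positions within the span are not in the table, so whether the exon is part of the 421 counted bases was not determined. The library kit was stranded per the labels, but MALAT1 and the antisense gene over it, TALAM1, had 72563 and 72552 counts over the 6 libraries, almost the same number on opposite strands, so counts on overlapping strands are not taken as separate here. BICD2 was not analysed here, and its part in the result was not tested.

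Among the 6325 genes with enough counts to be tested, ENSG00000303816 and ENSG00000300428 had the 8th and 9th highest log2 fold changes. High ranks follow from the choice of these genes for their rise and are descriptions. Of the tested genes, 24.5% were called higher and 24.0% lower in SiSFPQ by the edgeR quasi-likelihood test at a Benjamini-Hochberg adjusted p under 0.05, and in 27.1% every SiSFPQ library lay above every SiCtrl library. The median log2 fold change of all tested genes was 0.01, and 90% lay between -1.03 and 1.15. Both members are of low abundance, with 32.8% of tested genes below ENSG00000303816 in mean log2 CPM and 14.7% below ENSG00000300428. Both passed the filter on low counts only through the SiSFPQ libraries, so a gene at their SiCtrl level throughout would not have been tested.

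**Figure D2:**
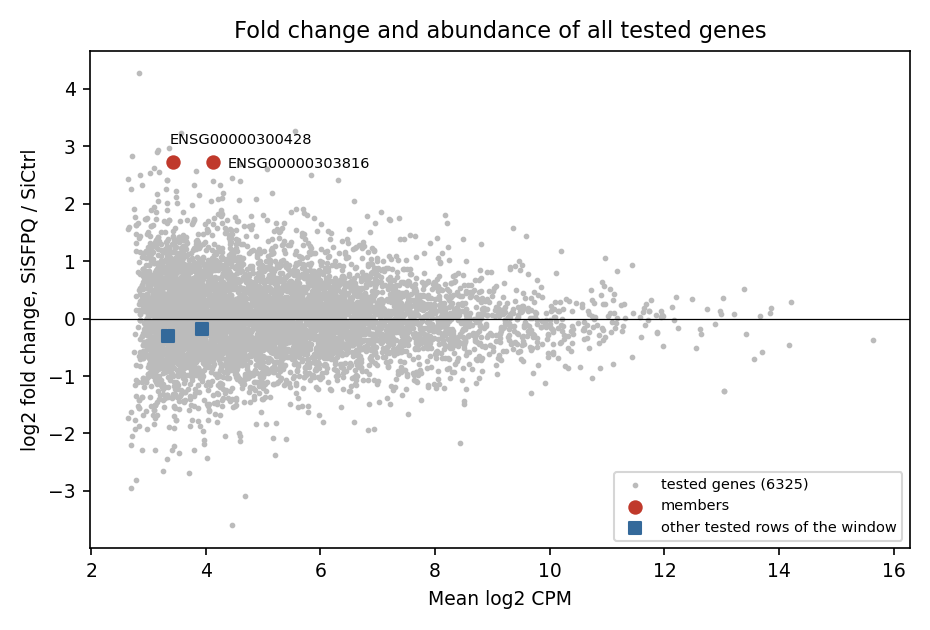
Log2 fold change of SiSFPQ over SiCtrl (vertical) against mean log2 CPM (horizontal) for the 6325 tested genes (grey), with the 2 members in red and the other 2 tested rows of the window as blue squares. The members lie at 2.73 and 2.72, and the other rows of the window at -0.18 and -0.31.

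Each member had the highest log2 fold change in the positional class it belongs to. ENSG00000300428 was 1st of 554 tested genes whose 5′ end lies within 1000 bases of the start of a coding gene on the opposite strand, head to head. In that class 174 genes (31.4%) were called higher and 93 (16.8%) lower, with a median log2 fold change of 0.13. ENSG00000303816 was 1st of 2891 tested genes whose span overlaps coding sequence on the opposite strand. There 645 (22.3%) were called higher and 686 (23.7%) lower, with a median of -0.01. Among the 2282 tested genes with a span under 5 kb, a class by size that holds both members, they ranked 5th and 6th. In that class 578 (25.3%) were called higher and 495 (21.7%) lower, with a median of 0.02. These ranks use the contrast by which the members were chosen and are descriptions.

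The next question was whether the surroundings of the pair differed in the same way. In the window set around the pair on chromosome 9, in which listed genes start between ENSG00000304973 and ENSG00000294173, from 124.0 kb before to 258.7 kb after the start of ENSG00000300428, the table lists 10 other genes. Of these 3 had no count in any library, which allows at most 0.346 CPM each over the 6 libraries (3 counts), 5 more had too few counts to be tested, and 2 were tested. Of the 2 tested neighbours, 0 were called higher and 0 lower by edgeR, against 24.5% and 24.0% of all tested genes. The count was also 0 at an unadjusted p under 0.05, and 0 by DESeq2 and by limma-voom.

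ANKRD19P, a transcribed pseudogene of an ankyrin repeat gene (ENSG00000291168, 92808811 to 92838458, plus strand), had 16, 20 and 22 counts in SiSFPQ, against 17, 23 and 22 in SiCtrl. Its log2 fold change was -0.18 ± 0.27 (SE, edgeR adjusted p = 0.61), and the groups overlapped. ENSG00000288271 (92809388 to 92888693, plus strand, which also overlaps coding exons of ZNF484) had 10, 14 and 11 counts in SiSFPQ, against 12, 18 and 11 in SiCtrl, and a log2 fold change of -0.31 ± 0.33 (SE, edgeR adjusted p = 0.47). These neighbours overlap on the same strand and may share reads. ENSG00000291169, which overlaps them too and was not tested, had 6, 9 and 7 counts in SiSFPQ and 5, 8 and 5 in SiCtrl.

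Summed over the 10 other genes, the window held 27.5, 31.1 and 29.1 CPM in SiSFPQ, against 32.1, 42.1 and 35.9 CPM in SiCtrl. Every SiSFPQ library was below every SiCtrl library, an order that 26.9% of single tested genes also had. The difference of the means was -7.48 CPM (exact permutation test, two-sided, p = 0.1, the smallest that 3 against 3 libraries allow). This order rested on the gene ENSG00000285650. Without it, an alternative chosen after seeing the data, the other 9 genes summed to 26.7, 29.9 and 28.4 CPM in SiSFPQ, against 26.4, 34.7 and 29.9 CPM in SiCtrl, so that the groups overlapped, and the difference was -1.97 CPM (exact permutation test, two-sided, p = 0.6). With the members added to all 10, the sums were 76.4, 71.6 and 71.1 CPM in SiSFPQ and 37.1, 47.6 and 44.9 CPM in SiCtrl. The members supplied 64.0%, 56.5% and 59.1% of the window's counts in SiSFPQ, against 13.5%, 11.4% and 20% in SiCtrl.

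**Figure D3:**
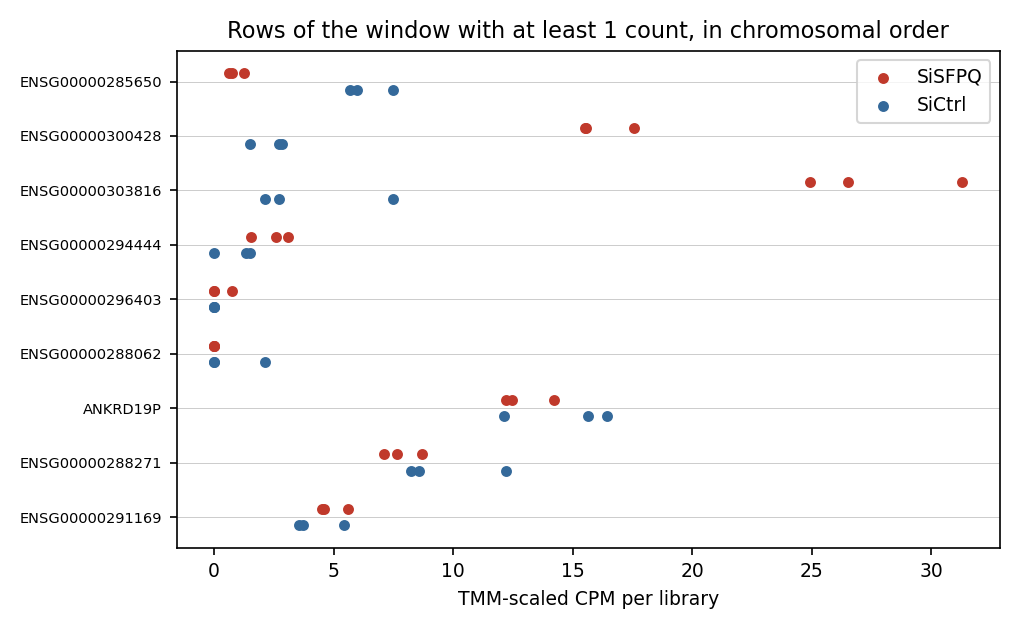
TMM-scaled CPM per library for the 9 genes of the window with at least 1 count, in chromosomal order from top to bottom, SiSFPQ in red above SiCtrl in blue. ENSG00000300428 and ENSG00000303816 lie to the right in SiSFPQ, ENSG00000285650 lies to the right in SiCtrl (5.71 to 7.47 CPM, against 0.646 to 1.25 CPM in SiSFPQ), and the 3 genes from ANKRD19P on overlap or nearly so.

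The low-count neighbour ENSG00000285650 went the other way from the members. It lies on the minus strand at the far end of IPPK (92600094 to 92612368), overlaps exons of the centromere protein gene CENPP on the opposite strand, and starts 816 bases beyond the 3′ end of IPPK. It had 1, 2 and 1 counts in SiSFPQ, against 8, 11 and 8 in SiCtrl, a ratio of pooled counts of 0.140 with a 95% exact counting interval of 0.0355 to 0.401. The groups did not overlap, as in 12.3% of all genes with at least 1 count for this direction. It did not pass the low-count filter and is singled out after its values were seen. With no filter its log2 fold change was -2.73 (edgeR adjusted p = 0.00036), where 6.81% of the genes tested were called lower. With a filter of at least 1 CPM in 3 libraries it was -2.73 (edgeR adjusted p = 0.00013), where 14.3% were. That filter is looser than the main one, as it kept 11651 genes, against 6325. DESeq2 gave -2.84 with no adjusted p. IPPK therefore has at its 5′ end a listed non-coding gene with more reads in SiSFPQ and beyond its 3′ end one with fewer. Reads of ENSG00000285650 may include reads of CENPP, whose exons its span overlaps, and this was not tested.

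Within BICD2 a further gene was listed. ENSG00000294444 (92748828 to 92764147, minus strand, as BICD2, overlapping none of its exons) had 2, 5 and 4 counts in SiSFPQ, against 0, 2 and 2 in SiCtrl. The ratio of pooled counts was 2.59, with an interval of 0.769 to 11.2 that includes 1, so no difference was detectable at this depth. In CPM the groups did not overlap, with a lowest value of 1.53 in SiSFPQ and a highest of 1.5 in SiCtrl, an order that 12% of all genes with at least 1 count had. It was not tested, and without the filter edgeR gave an adjusted p = 0.42. The remaining low-count genes were ENSG00000296403, with 1 count in SiSFPQ and 0 in SiCtrl, and ENSG00000288062, with 0 in SiSFPQ and 3 in SiCtrl.

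**Figure D4:**
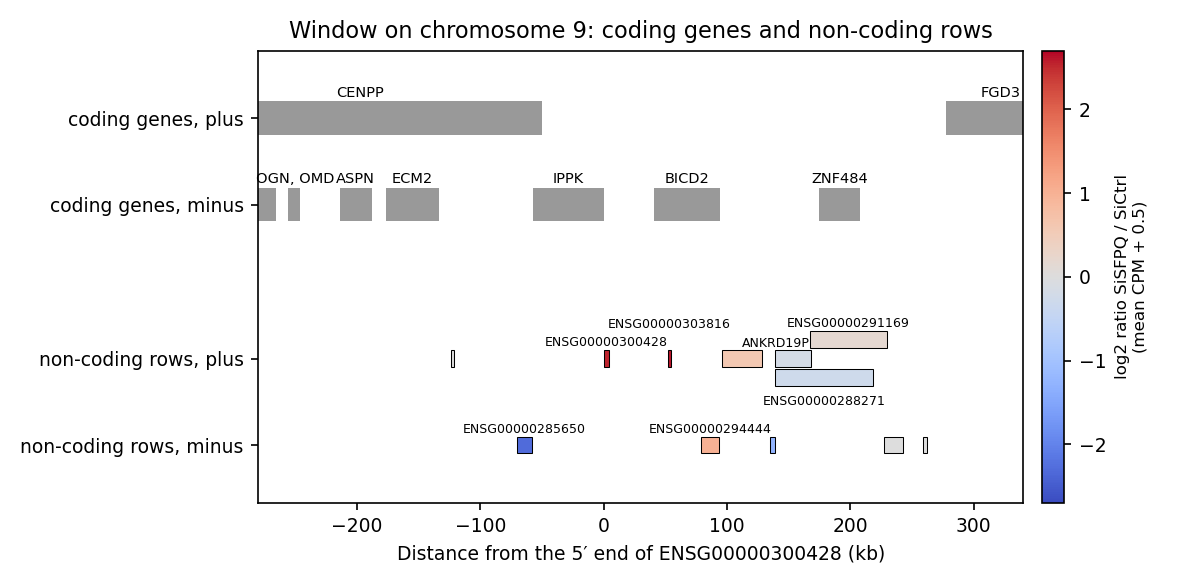
Map of the window in kb from the 5′ end of ENSG00000300428, with coding genes of GENCODE 29 in grey (cut at the borders) and the 12 listed non-coding genes coloured by the log2 ratio of mean CPM + 0.5 in SiSFPQ over SiCtrl (white-grey where there is no count; bars are at least 3 kb wide). The 2 members, at the IPPK start and inside BICD2, are dark red, and ENSG00000285650 at the far end of IPPK is dark blue.

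The outermost genes inside, ENSG00000304973 and ENSG00000294173, had no count. Just outside, ENSG00000310164 on the lower side had 1, 0 and 0 counts in SiSFPQ and 0, 1 and 1 in SiCtrl. On the upper side ENSG00000223446 (93091454 to 93113493, minus strand) overlaps coding exons of the gene CARD19 on the opposite strand. It had 4, 7 and 5 counts in SiSFPQ, against 11, 21 and 17 in SiCtrl. It fell by 1.67 on the log2 scale (SE 0.39, edgeR adjusted p = 6.5e-05). Its reads may include reads of CARD19, and this was not tested. Within 1 Mb to each side of the middle of the window, a region chosen after the data were examined, 6 of 27 other genes were tested, of which 0 were called higher and 2 lower, where the shares of all tested genes were 24.5% and 24.0%. Beside ENSG00000223446 the other lower gene was ENSG00000305128 (log2 fold change -0.53 ± 0.13 SE, edgeR adjusted p = 0.00027), and with 0.5 Mb to each side 0 were higher and 1 lower. With so few genes tested, these counts show no regional direction.

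Neighbours on the same strand that are both higher were not rare in the table. Of 1710 pairs of tested genes that follow each other on a strand, do not overlap and lie at most 100 kb apart, 137 (8.01%) were both called higher, 163 both lower and 154 in opposite directions. Ranked by the smaller log2 fold change of the pair, ENSG00000300428 and ENSG00000303816 came 1st of the 137, a place that follows from the choice of the genes. The next pairs were ENSG00000301077 and ENSG00000253372 on chromosome 8 (2.40 and 2.16, 18535 bases apart), ENSG00000271579 and ENSG00000276972 on chromosome 12 (2.54 and 2.06, 2137 bases apart), and ENSG00000272121 and ENSG00000297170 on chromosome 3 (2.05 and 1.76, 1141 bases apart). The gap of 47675 bases between the members is wider than in any of these 3 pairs, but the pair ranked 8th lay 78028 bases apart.

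**Figure D5:**
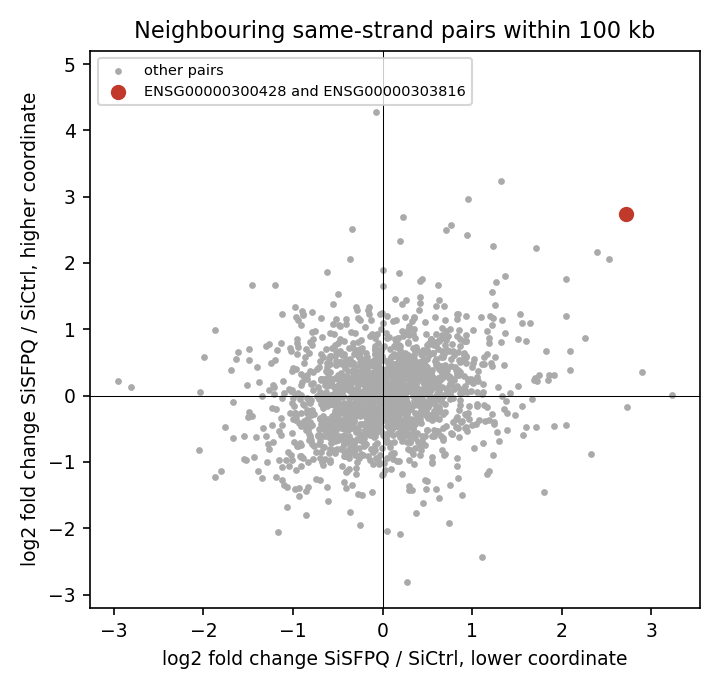
Log2 fold changes of SiSFPQ over SiCtrl for the 1710 neighbouring same-strand pairs within 100 kb, the gene of lower coordinate on the horizontal and that of higher coordinate on the vertical axis. The members' pair (red, 2.72 and 2.73) lies farthest out along the diagonal of the upper right.

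The course over the 6 libraries was then compared with that of other genes within 1 log2 unit of each member's mean log2 CPM. Pearson's r of log2 CPM is given as a description, and since the libraries fall into the groups it mostly records the difference between them. For ENSG00000303816 the closest of 3056 genes were LRP8-DT (r = 0.994), ENSG00000294356 (r = 0.993) and ENSG00000253917 (r = 0.990). LRP8-DT, which starts beside the lipoprotein receptor gene LRP8, had a mean of 24.6 ± 0.827 CPM in SiSFPQ and 11.0 ± 2.91 CPM in SiCtrl. For ENSG00000300428 the closest of 2561 were ENSG00000302960 (r = 0.997), ENSG00000261898 (r = 0.996) and LINC00163 (r = 0.996), of which ENSG00000261898 had 21.7 ± 3.13 CPM in SiSFPQ and 3.53 ± 1.12 CPM in SiCtrl. An r of at least 0.95 was reached by 65 genes for ENSG00000303816 and by 89 for ENSG00000300428. The members were not among each other's closest genes, with r = 0.866 between them, and differed most in SiCtrl replicate 3.

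Other loci of the dynein machinery were examined because one member lies in BICD2. Of 53 listed genes for dynein and dynactin subunits, adaptors and partners, 24 had a non-coding gene of the table over their span apart from the BICD2 locus itself, and 23 such genes at 19 loci were tested. Of these 4 (17.4%) were called higher and 9 lower by edgeR, with a median log2 fold change of -0.11, against 24.5% and 24.0% called and a median of 0.01 over all tested genes. NRAV, which overlaps the dynein light chain gene DYNLL1 (ENSG00000248008), rose to 131 ± 8.53 CPM in SiSFPQ, against 44.7 ± 3.25 CPM in SiCtrl (SD, n = 3 each; log2 fold change 1.55 ± 0.12 SE, edgeR adjusted p = 1.2e-35). ENSG00000267062, in the span of the adaptor gene HOOK2 but over exons of the peroxiredoxin gene PRDX2, fell by 0.48 (adjusted p = 1.8e-13). ENSG00000260465, over the light intermediate chain gene DYNC1LI2, fell by 0.42 (adjusted p = 1.9e-12), and ENSG00000289474, within the kinesin gene KIF5C, fell by 0.75 (adjusted p = 1.0e-10).

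Non-coding genes at relatives of BICD2 went in different directions, an example chosen after the values were seen. BICD1-AS1, over exons of the paralogue BICD1, had 33, 56 and 47 counts in SiSFPQ, against 25, 14 and 23 in SiCtrl, and rose by 1.04 ± 0.22 on the log2 scale (SE, edgeR adjusted p = 1.6e-05). The other tested gene at BICD1, ENSG00000277342, did not pass the threshold (log2 difference -0.47, edgeR adjusted p = 0.15). ENSG00000205890, over exons of the BICD-like gene BICDL2, had 25, 29 and 26 counts in SiSFPQ, against 48, 62 and 61 in SiCtrl, and fell by 1.18 (SE 0.20, edgeR adjusted p = 2.8e-08). Genes over coding exons can hold reads of the coding gene, and this was not tested.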

How the data were processed

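The authors deposited raw read counts per gene for 6 libraries, 1 column each, with coordinates and exonic lengths. Per the labels' protocols, RNA was extracted with TRIzol, poly(A)-selected and made into stranded libraries. How reads were aligned and counted, and on which build, is not given in the sources used here. GENCODE 29 (GRCh38) lists 13886 of the identifiers, and 13874 of these overlap their position there, so coordinates are read as GRCh38. The low counts of the members at this depth limit the precision of their values.

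Counts were fitted with edgeR 4.0.16 in R 4.3.3 over the whole table: filterByExpr, which left 6325 genes, TMM scaling, and a robust quasi-likelihood model with only the group as term. Tests were two-sided, and calls used a Benjamini-Hochberg adjusted p under 0.05. The SE is the log2 fold change divided by the root of F. Pearson's r used log2 of CPM + 0.5. The model was tested on simulated data first. Libraries of 1 group differed beyond sampling noise (chi-square per degree of freedom 1.24 to 1.40), so no column was a copy of another. This check cannot tell whether the same RNA was sequenced more than once. P-values measure only the spread between these samples, which may be technical.

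The members, the lists and the alternatives were chosen with earlier results of these data known. Named are the members, the tested genes of the window, the 3 genes most like each member, the 4 smallest adjusted p of the dynein list and the 3 strongest other pairs; any further gene was named after its values were seen. Alternatives were RLE and upper-quartile scaling, plain library totals, no filter, and a looser filter of at least 1 CPM in 3 libraries. Further ones were DESeq2 1.42.0, limma-voom (limma 3.58.1), a replicate block, leaving out each library, and other distances. For the counts of pairs and of dynein loci, the settings other than distance were added after seeing the data. Overlaps and permutation tests were computed in Python 3.11.15 with SciPy 1.17.1. Promoter sequences are from RefSeq and exon sequence from GENCODE 29. No genome sequence was used here, so the members' own sequences are shown only where those sources cover them.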

Additional observations from a re-analysis of the deposited data

How the results depend on the processing

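Over 14 alternatives the log2 fold change of ENSG00000303816 stayed within its replicate spread of 0.851 log2 units and that of ENSG00000300428 within 0.416. Scaling, filter and tool gave 2.73 to 2.83 for ENSG00000303816 and 2.64 to 2.78 for ENSG00000300428, and leaving out each library gave 2.43 to 3.43 and 2.49 to 2.86. Same-numbered replicates did not visibly deviate together (r = -0.00402, 0.000998 and 0.00748). Many tested genes have low counts, so a small effect shared by same-numbered libraries could have been missed. With the replicate block the members were at 2.74 and 2.73, pairs both higher numbered 133, and dynein loci 4. Of the window's other genes 1 was called lower with no filter and 1 with the looser filter, ENSG00000285650 in each. With these settings 7 and 5 of them rather than 2 were tested. Pairs with both genes higher numbered 61 by DESeq2, against 137, head-to-head genes called higher 97, against 174, and of all tested genes 858 were called higher and 904 lower, against 1547 and 1516; the cause was not tested. Leaving out each library gave 109 to 126 such pairs, 3 to 5 dynein loci called higher and 0 neighbours called. Taking genes within 10 kb of the dynein loci gave 7 higher in place of 4, since more genes were included. Of 322 values of 23 other named genes, 310 kept direction and call, 12 lost the call (those of ENSG00000294356 and LINC00163, LINC00163 under DESeq2, both filters and each left-out library) and 0 reversed. Counts of 2 to 10 reads per SiCtrl library limit how closely either fold change is known.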
